A study of Mus musculus with 3 samples.

Results

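Nfia, Nfib, Nfic, Nfix and Zbtb20 are genes of transcription factors tied to the formation of glial cells, and they were followed here in cultured mouse astrocytes. They are 5 of the 19471 genes in the deposited table, taken by gene symbol, and each had a single row (Ensembl identifiers ENSMUSG00000028565, ENSMUSG00000008575, ENSMUSG00000055053, ENSMUSG00000001911 and ENSMUSG00000022708, in the order above). The 3 libraries form 1 group of wild-type cortical astrocytes, labelled as biological replicates 1, 2 and 3, from pups 5, 6 and 8. The cells came from pups of postnatal day 1 and RNA was taken after 7 days of culture. The sample descriptions name day 0 where the titles name day 1, and mark all 3 samples Ctrl, with no treated or mutant counterpart analysed here. No transgene, treatment or mutant allele is given for these samples, so no contrast between conditions could be made. All comparisons below are between genes within a library or between the 3 libraries.

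The nuclear factor I (NFI) proteins bind as dimers to a palindrome, TTGGC and GCCAA with a spacer between them, through a conserved amino-terminal domain. In the developing nervous system NFIA and NFIB act in the switch from neuron to glia production and in the expression of astrocyte genes, NFIX acts in neural stem cells, and NFIC is best known for tooth root formation. ZBTB20 is a zinc finger repressor with a BTB domain, known for hippocampal and cortical patterning and for promoting astrocyte formation from cortical progenitors.

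The NFI genes are paralogs, so the sequence that sets their transcripts apart was examined first. Each has a second coding exon of 532 bases, which encodes most of the DNA-binding domain. Of all stretches of 120 bases in that exon, none had more bases shared by all 4 genes than the first, which was chosen for that. The first 120 bases of that exon are shown on the coding strand, from the GENCODE transcripts on mm10, with capitals at bases that are not the same in all 4 genes. They lie at chr4:97783082-97783201 on the plus strand for Nfia, and on the minus strand at chr4:82498650-82498769 for Nfib, chr10:81420679-81420798 for Nfic and chr8:84772196-84772315 for Nfix.
Nfia: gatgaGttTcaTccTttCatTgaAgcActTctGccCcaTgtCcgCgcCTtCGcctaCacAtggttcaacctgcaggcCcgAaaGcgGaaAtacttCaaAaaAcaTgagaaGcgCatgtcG
Nfib: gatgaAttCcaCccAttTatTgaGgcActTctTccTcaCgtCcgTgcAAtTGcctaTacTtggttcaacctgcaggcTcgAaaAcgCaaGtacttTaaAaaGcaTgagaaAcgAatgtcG
Nfic: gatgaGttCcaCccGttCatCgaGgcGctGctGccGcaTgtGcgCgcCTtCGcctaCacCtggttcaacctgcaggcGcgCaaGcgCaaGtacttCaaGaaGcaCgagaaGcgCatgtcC
Nfix: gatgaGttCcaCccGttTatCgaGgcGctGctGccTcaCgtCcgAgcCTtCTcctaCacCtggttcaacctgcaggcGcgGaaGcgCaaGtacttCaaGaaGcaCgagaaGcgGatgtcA
The 4 genes shared 88 of these 120 bases, and 351 of the 532 bases of the whole exon. Between pairs the exon was 75.8% (Nfia and Nfic) to 82.0% (Nfic and Nfix) identical, with a longest identical run of 17 to 32 bases. No stretch of 50 bases occurred in the transcripts of more than 1 of the 5 genes. With other annotated genes, 0.107% of such stretches were shared for Nfix and 0.185% for Zbtb20, and no stretch of the other three genes was. The read length is not given in the sources used here.

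Over all libraries 6418 reads were counted for Nfia, 11352 for Nfib, 6641 for Nfic, 20208 for Nfix and 25411 for Zbtb20. Library totals ran from 9858626 to 25128038 reads. Genes that average at least 10 normalized reads are called detected below. Of the 12 astrocyte markers used as a check, 11 were detected and 8 averaged at least 1000, with the connexin gene Gjb6 at 2.95. Of all genes in the table, 71.6% were detected by this measure, so a share of markers near that says little. All 10 microglial and all 5 ependymal markers were detected, as were 6 of 7 of oligodendrocyte precursors, 5 of 6 of meningeal fibroblasts, 5 of 7 of mural cells, 5 of 7 of neural progenitors, 4 of 5 of oligodendrocytes, 3 of 5 of endothelium and 7 of 10 of neurons. Some stood at high normalized counts, such as the smooth muscle actin gene Acta2 at 48318, the ciliogenesis factor gene Foxj1 at 9966, Olig1 of the oligodendrocyte lineage at 5896, the microglial receptor gene Csf1r at 5517 and Islr at 2691. Others were under 10, among them the neuronal genes Rbfox3, Snap25 and Slc17a7, the endothelial gene Pecam1 and the mural genes Kcnj8 and Abcc9. Single markers do not stand for their lists, which were mixed. Neuronal Map2 averaged 2564, endothelial Kdr 690 and mural Pdgfrb 900, while Lum of the fibroblast list was at 2.20 and Sox10 of the precursor list at 14.9. As whole cultures were sequenced, fewer cells of a type and less RNA per cell cannot be told apart.

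All 5 genes were well expressed in every library, and Zbtb20 and Nfix had the most reads. Values are the deposited normalized read counts, which are not divided by gene length, given with the SD over 3 libraries. Zbtb20 stood at 5164, 6409 and 6547 in replicates 1, 2 and 3, a mean of 6040.1 ± 762 (SD, n = 3), and ranked 212 of all genes. Nfix stood at 4929.8, 4551 and 5380, a mean of 4954 ± 415, at rank 297. Replicate 3 was the highest for both genes, and the ranges of the pair overlapped.

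Nfib, the NFI gene next in read count, stood at 2311, 2795 and 3091, a mean of 2732 ± 394 (SD, n = 3). Nfic stood at 1582, 1565 and 1649, a mean of 1599 ± 44.5. Nfia, the NFI factor first linked to the onset of gliogenesis, stood at 1306, 1573 and 1767, a mean of 1549 ± 231. The values of Nfic lay within the range of Nfia, while Nfib was above both in each library. The lowest of the 5 genes was still above 87.9% of the 13941 detected genes.

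**Figure D1:**
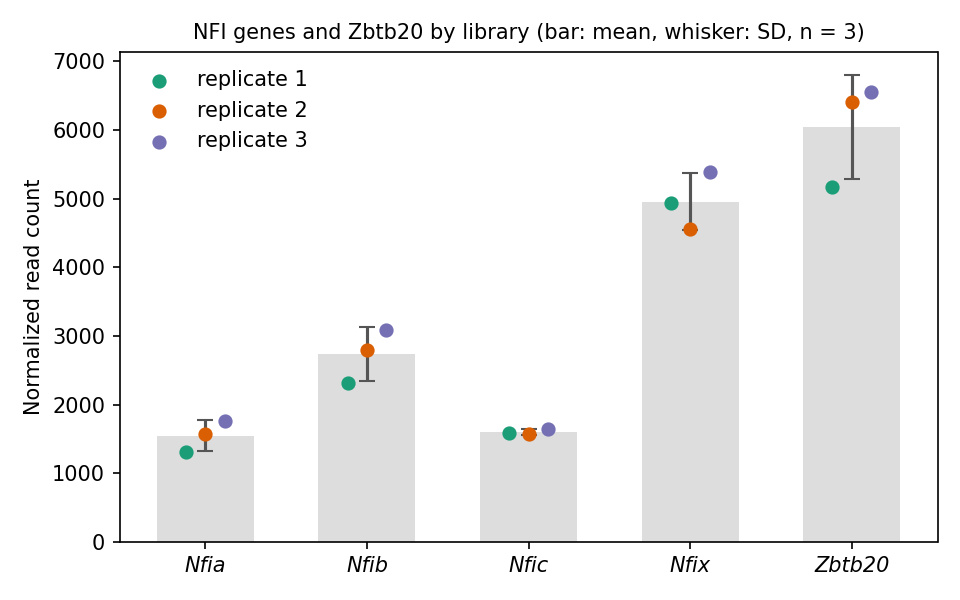
Normalized read count (y axis) of the 5 genes (x axis), with bars for the mean, whiskers for the SD and a point for each of the 3 libraries. All 5 genes were highest in replicate 3, and Zbtb20 and Nfix stand apart from the other three genes.

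The 5 genes differ in length, so levels were compared per kilobase of annotated exon. Zbtb20 spans 766722 bases of chromosome 16 (mm10, 42875881 to 43642602, plus strand) and has 30730 bases of exon, and 1 of its 12 coding transcripts is 26901 bases long. Nfib (chromosome 4, 82290173 to 82705750, minus strand) has 14957 bases of exon and Nfia (chromosome 4, 97772734 to 98118874, plus strand) has 10891. Nfix (chromosome 8, 84699876 to 84800344, minus strand) has 7351 and Nfic (chromosome 10, 81396186 to 81455635, minus strand) has 6630. The exons of Zbtb20 are thus the longest and those of Nfic the shortest.

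Per kilobase of exon, Nfix was the highest of the 5 and Nfia the lowest. Nfix had a level of 670.6, 619 and 732 normalized reads per kilobase in replicates 1, 2 and 3, a mean of 674 ± 56.4 (SD, n = 3), above 94.1% of detected genes. Nfic followed at 239, 236 and 249, a mean of 241 ± 6.72, and no value of Nfic reached that of Nfix. Zbtb20 was at 168, 209 and 213, a mean of 197 ± 24.8, which placed the gene with the most reads in the middle of the order.

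Nfib was at 154, 187 and 207 normalized reads per kilobase, a mean of 183 ± 26.3 (SD, n = 3), and its range overlapped that of Zbtb20. Nfia was at 119.9, 144 and 162, a mean of 142 ± 21.3, above 68.5% of detected genes. The ranges of Nfia and Nfib overlapped, but Nfia was the lower within each library. Neighbours in the order whose ranges did not overlap were Nfix and Nfic, and Nfic and Zbtb20.

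The other 4 genes were each compared with Nfia on the within-library log2 difference per kilobase, with limma fitted across 13901 genes. All 4 lay above Nfia at an adjusted p under 0.05, against 25.6% of all genes tested. As Nfia was the lowest of the 5 per kilobase, the direction of these differences follows from the choice of reference. The difference was 2.25 ± 0.18 (SE) for Nfix, or 4.76-fold (adjusted p = 3.85e-36, limma, higher in 3 of 3 libraries), and 0.77 ± 0.17 for Nfic, or 1.71-fold (adjusted p = 9.56e-06, limma, 3 of 3). For Zbtb20 it was 0.47 ± 0.17, or 1.38-fold (adjusted p = 0.00745, limma, 3 of 3), and for Nfib 0.36 ± 0.17, or 1.28-fold (adjusted p = 0.0399, limma, 3 of 3). Without replicate 2 the calls of Zbtb20 (adjusted p = 0.231, limma) and Nfib (adjusted p = 0.334) ended. The call of Nfib also ended without replicate 3 (adjusted p = 0.0761, limma) and without a trended prior (adjusted p = 0.0904). Without division by length Nfic lay 0.06 from Nfia on the log2 scale (adjusted p = 0.736, limma), with Nfia the higher in 2 of 3 libraries.

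With Zbtb20 as the reference gene, Nfix lay 1.78 ± 0.16 (SE) above it on the log2 scale per kilobase, or 3.44-fold (adjusted p = 7.86e-28, limma), where 18.7% of all genes were called above and 71.2% below. Nfia lay below Zbtb20 by the difference given above (adjusted p = 0.00296, limma, or 0.108 without replicate 2). It is the same contrast with the reference exchanged, so it is no separate evidence. Its SE was 0.155 here and 0.171 with Nfia as reference, as the prior is fitted to differences from the reference gene. Nfic lay 0.30 ± 0.16 above Zbtb20 and missed the threshold (adjusted p = 0.0564, limma), although it was higher in 3 of 3 libraries. Nfib differed from Zbtb20 by -0.11 ± 0.15 (adjusted p = 0.506, limma), lower in 3 of 3 libraries. With 3 libraries, these errors come mostly from the prior that limma draws from all genes.

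The place of Zbtb20 depended on the length used. Divided by the longest coding transcript of each gene, the level per kilobase was 905 ± 75.8 (SD, n = 3) for Nfix, 299.7 ± 43.2 for Nfib, 256 ± 7.14 for Nfic, 225 ± 28.3 for Zbtb20 and 163 ± 24.3 for Nfia. Nfib then lay 0.41 above Zbtb20 on the log2 scale (adjusted p = 0.00793, limma). Divided by the median length of coding transcripts, which is 829 bases for Zbtb20, the level of Zbtb20 was 7286 ± 919 and above that of all 4 NFI genes. The log2 difference from Nfia was then 5.44 for Zbtb20, 4.10 for Nfix, 2.31 for Nfib and 2.00 for Nfic. Nfix was the highest NFI gene and Nfia the lowest under each of these 3 lengths. The table holds no values per transcript, so which length applies was not tested.

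**Figure D2:**
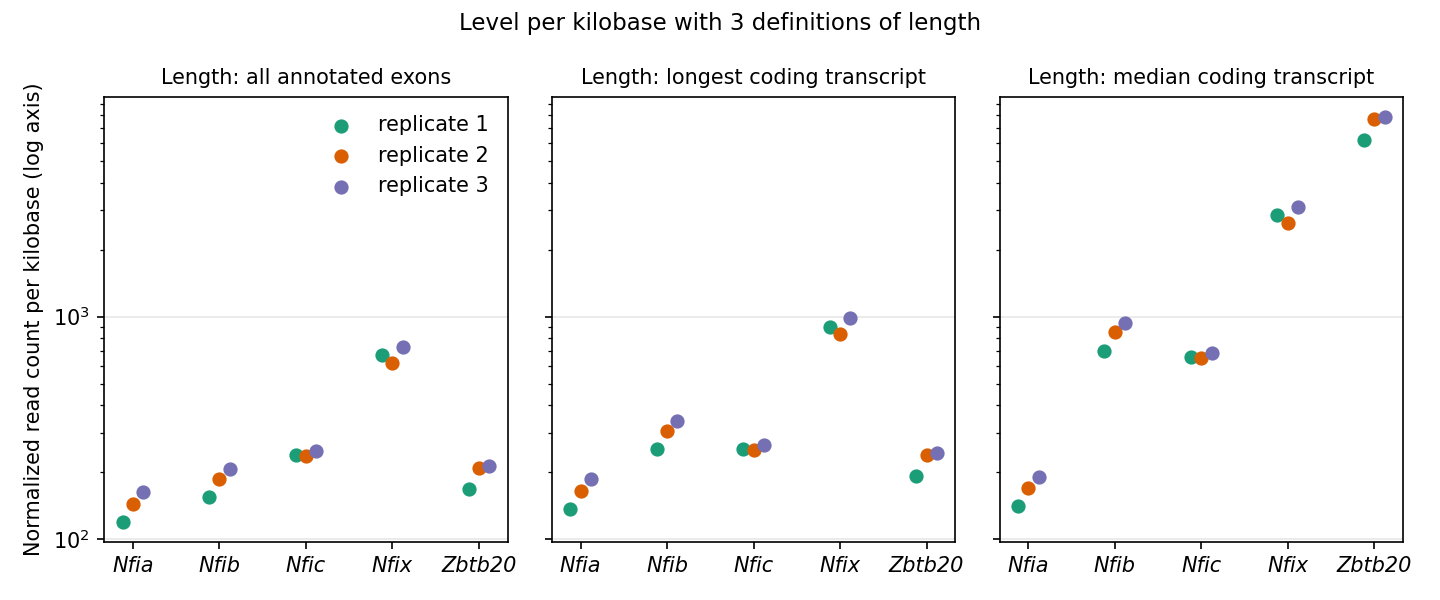
Level per kilobase (y axis, log scale) of the 5 genes (x axis) in each of the 3 libraries, with length taken as all annotated exons, the longest coding transcript or the median coding transcript. Zbtb20 moves from 197 to 225 and 7286 across the panels, while Nfix stays the highest and Nfia the lowest of the NFI genes.

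Within the NFI family the order of the shares per kilobase of exon was the same in each library. Per kilobase of exon, Nfix gave 56.7%, 52.2% and 54.2% of the summed NFI level in replicates 1, 2 and 3, a mean of 54.4% ± 2.24 (SD, n = 3). Nfic gave 19.5% ± 0.931, Nfib 14.7% ± 1.45 and Nfia 11.4% ± 1.14. The share of Nfib ran from 13.1% in replicate 1 to 15.8% in replicate 2, and that of Nfia from 10.1% to 12.2%. With the longest coding transcript as length Nfix gave 55.7% ± 2.41, and with the median coding transcript 63.3% ± 2.17. Without division by length it held 45.8% ± 2.67 of the normalized NFI reads. In each library and on each of these 4 scales Nfix had the largest share.

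The libraries were then compared with one another for each gene. Reads differed between the 3 libraries by more than read sampling for 4 of the 5 genes (chi-square test of reads, Benjamini-Hochberg adjusted over 13941 genes, of which 55.4% were called, and 84.1% of the 2954 that averaged at least 1000). The share of called members is thus near that of genes of such depth. The highest library was 1.35 times the lowest for Nfia (adjusted p = 1.73e-14, chi-square test), 1.34 times for Nfib (4.66e-24), 1.27 times for Zbtb20 (1.71e-45) and 1.18 times for Nfix (1.18e-20). Without replicate 1 the call of Zbtb20 ended (adjusted p = 0.189, chi-square test), as its values in replicates 2 and 3 lay close together.

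Nfic was the steadiest of the 5. Its highest library was 1.05 times the lowest, and its reads were not called different between libraries (adjusted p = 0.254, chi-square test). The SD of its log2 values was 0.04, which exceeded that of 7.33% of genes with 0.5 to 2 times its mean. Nfia at 0.22, Nfib at 0.21 and Zbtb20 at 0.19 exceeded 85.9%, 86.1% and 81.4% of genes of similar mean, and Nfix at 0.12 exceeded 52.6%. The median was 0.14 over genes averaging at least 100 normalized reads.

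**Figure D3:**
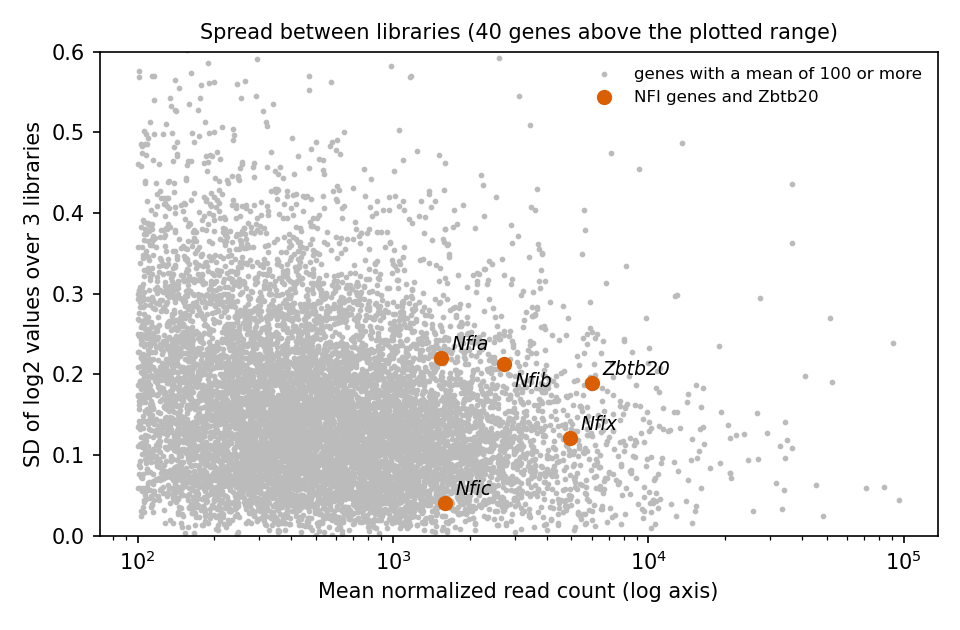
SD of the log2 values over the 3 libraries (y axis) against the mean normalized read count (x axis, log scale) for genes averaging at least 100, with the 5 genes in orange. Nfic lies near the bottom at 0.04, while Nfia, Nfib and Zbtb20 lie between 0.19 and 0.22.

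All 5 genes were highest in replicate 3, as were 35.2% of the 10571 genes averaging at least 100 normalized reads. Nfia, Nfib and Zbtb20 were lowest in replicate 1, a pattern held by 21.2% of these genes, while Nfic and Nfix were lowest in replicate 2. Markers of other cells also moved between the libraries. All 10 microglial markers were highest in replicate 1, where their summed normalized count was 29811, against 23171 in replicate 2 and 20529 in replicate 3. The ependymal markers summed to 13301, 9726 and 11014 and those of oligodendrocyte precursors to 8909, 10052 and 7226. Most of each sum came from 1 gene, Foxj1 (11671, 8764 and 9465) and Olig1 (5984, 6876 and 4827). Of the 5 ependymal markers 3 were highest in replicate 1 and 2 in replicate 3. Of the 7 precursor markers 6 were highest in replicate 2. The 12 astrocyte markers summed to 130804, 136057 and 114308, and 2 of the 12 were highest in replicate 3. Sums of neuronal (3719, 3430 and 3848), mural (49408, 49584 and 50571) and endothelial markers (787, 765 and 845) were highest in replicate 3. Of these markers 5 of 10, 2 of 7 and 2 of 5 were highest there, and the mural sum was mostly Acta2. Sums of meningeal fibroblast and oligodendrocyte markers were highest in replicate 1, and that of neural progenitor markers in replicate 2. The part of any marker in the pattern of the 5 genes was not tested.

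Nfia and Nfib kept almost the same ratio in all libraries. Reads of Nfia were 0.565, 0.563 and 0.572 times those of Nfib in replicates 1, 2 and 3. The SD of the log2 ratio was 0.012, below the value of 0.042 that counting alone gives on average for these reads. Against Nfib, 12 of 10569 other genes averaging at least 100 normalized reads were as steady, and 3 of the 3198 with 0.5 to 2 times the mean of Nfia. An SD under the counting value is finer than these reads can resolve, so these counts are a description. Nfia and Nfib lie at separate positions on chromosome 4, given above, and any part of location in the ratio was not tested. Between Nfia and Zbtb20 the SD of the log2 ratio was 0.07 and between Nfib and Zbtb20 0.06. Between Nfia and Nfic it was 0.20, as the ratio was 0.826 in replicate 1 and 1.005 and 1.07 in replicates 2 and 3.

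Genes with the most similar pattern were found by the distance between log2 values over the 3 libraries, each centred on the gene's own mean. For Nfia the nearest were Klf3, a Krüppel-like repressor gene, at a distance of 0.00458 and Tbc1d15, a Rab GTPase-activating protein gene, at 0.00509. Nfib was the 13th nearest gene to Nfia, at 0.0169, and Zbtb20 ranked 472 at 0.0994. The nearest to Nfib were the synaptic scaffold gene Homer1 (0.00811) and Lix1 (0.00830), to Nfic Mtmr3 (0.00183) and Pfdn4 (0.00246), to Nfix Jam3 (0.00611) and Ftsj1 (0.00693), and to Zbtb20 Lmbrd2 (0.00483) and Tbck (0.00619). Of 10570 genes compared, 481 (4.55%) lay within a distance of 0.1 of Nfia, 505 (4.78%) of Nfib and 1638 (15.5%) of Nfic. For Nfix it was 799 (7.56%) and for Zbtb20 601 (5.69%). With 3 libraries such closeness is common, and it is given as a description.

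The 5 genes were next placed among 29 other regulators of astrocyte formation, which include SOX factors, effectors of Notch, BMP and cytokine signalling, and regional factors. All 29 were in the table and 28 were detected. Per kilobase of exon, 16 lay above Nfia and 7 below it, and 5 were not called (limma, adjusted p under 0.05, where 25.6% of all genes were called above and 62.3% below). Without division by length the balance turned, with 7 above and 17 below. The median over all 29, detected or not, was 206 normalized reads per kilobase, against 71.7 for the 13902 detected genes with a known length. Against Zbtb20, 13 lay above, 10 below and 5 were not called.

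The highest were Id3, Id1 and Id2, whose ID proteins are BMP targets that block bHLH factors. Id3 stood at 2498 ± 413 normalized reads per kilobase (SD, n = 3), Id1 at 2207 ± 107 and Id2 at 1212 ± 199. The progenitor factor gene Sox2 was at 1143 ± 32.8, or 3.02 ± 0.18 (SE) above Nfia on the log2 scale (adjusted p = 1.26e-59, limma). The other ID gene, Id4, was lower at 383 ± 57.8, seventh in the list. Nfix stood next below the 4 highest. The lowest were the runt factor gene Runx2 at 16.7 ± 2.18, the homeobox gene Dbx2 at 5.83 ± 1.88, and the Notch effector genes Hey2 at 5.66 ± 0.415 and Hes5 at 3.92 ± 1.48, the last from 25 reads in all.

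**Figure D4:**
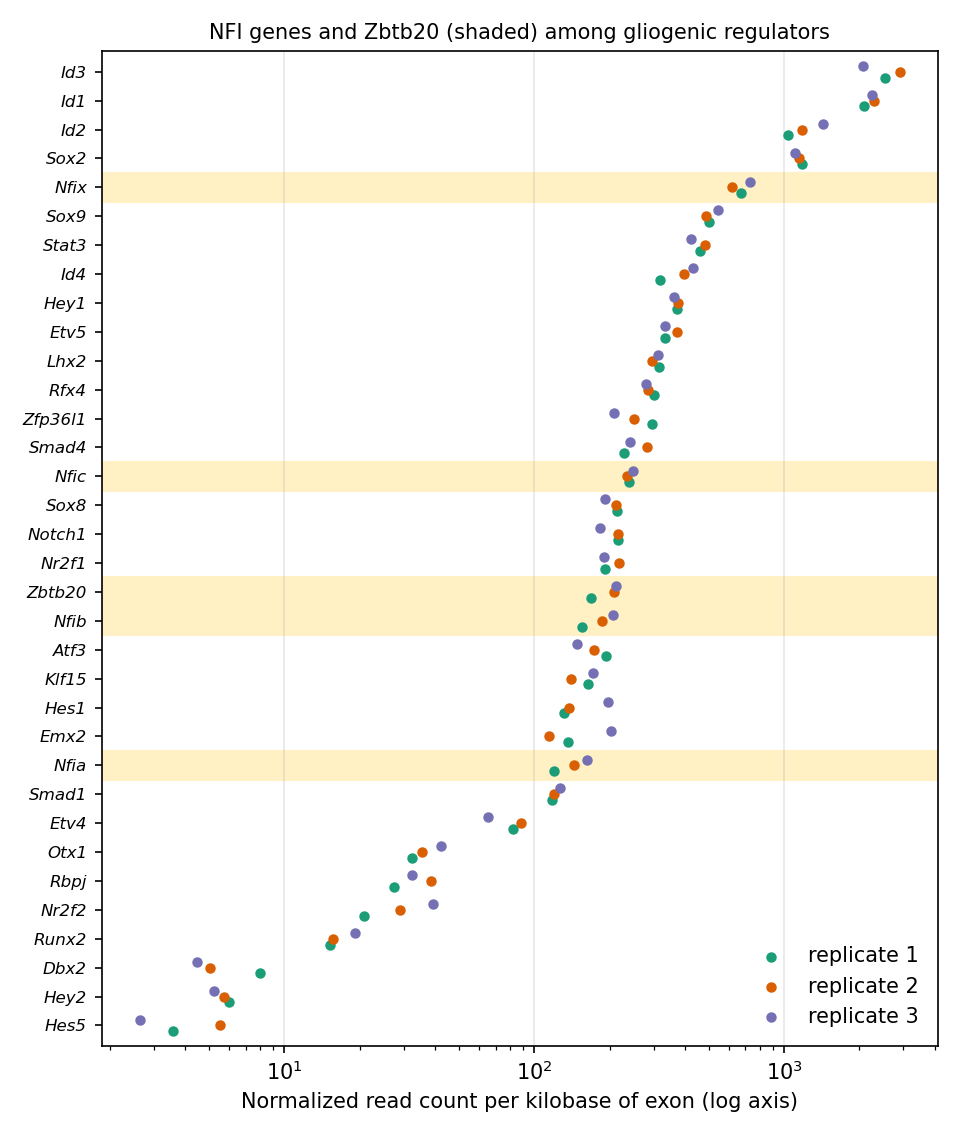
Normalized reads per kilobase of exon (x axis, log scale) in each library for 29 gliogenic regulators and the 5 genes (shaded rows), ordered by mean. Nfix at 674 lies below 4 regulators, and Nfic, Zbtb20, Nfib and Nfia lie further down, between 142 and 241. Of these, Zbtb20, Nfib and Nfia are under the regulator median of 206.

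Genes linked to NFI factors in earlier work, from astrocyte genes to proposed targets of NFIA with SOX9, mostly lay above Nfia. Of 13, 10 were above and 3 below it per kilobase (limma, adjusted p under 0.05, where 25.6% of all genes were above and 62.3% below). The list median was 1039 normalized reads per kilobase, against 71.7 for all detected genes. The list shares 7 genes with the astrocyte markers above. Gfap, the astrocyte intermediate filament gene, was at 12395 ± 1583 (SD, n = 3), Fabp7, a fatty acid binding protein gene of radial glia, at 8828 ± 853, and the glutamate transporter gene Slc1a3 at 2577 ± 223. The metabolic and matrix genes Aldoc at 1693 ± 289, Sparcl1 at 1595 ± 47.0 and Aldh1l1 at 1039 ± 141, and the water channel gene Aqp4 at 1165 ± 162, followed.

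The genes reported as joint targets of NFIA and SOX9 differed widely. Zcchc24 stood at 939 ± 53.3 and Mmd2 at 314 ± 73.3 normalized reads per kilobase (SD, n = 3), both above Nfia, while Apcdd1 was at 3.95 ± 0.952, a log2 difference of -5.16 ± 0.28 (SE) from Nfia (adjusted p = 1.66e-72, limma). Apcdd1 had normalized counts of 55.3, 60.4 and 37.1 in replicates 1, 2 and 3, so it was detected in each library. Sox9 itself was at 510.03 ± 27.6 per kilobase. The calcium-binding protein gene S100b, which marks later astrocytes, was at 46.3 ± 13.1. Ezh2, a Polycomb gene that NFIB is reported to repress, was at 81.2 ± 7.41 a log2 difference of -0.80 from Nfia with all exons as length and of 0.27 (adjusted p = 0.127, limma) with the longest coding transcript.

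The RefSeq promoters (GRCm38.p6, 250 bases before to 50 after a start site) were searched for the NFI sequence on both strands. The full palindrome occurred in 12 of 32851 promoter windows, or 0.0365%, and in none of the 10 windows matched to 9 of the 13 NFI-linked genes. Its arm, TTGGC or GCCAA, occurred in 6 of those 10 windows and in 46.7% of all windows. These stretches of 29 bases upstream of a start site show the arm in capitals for Fabp7 (chr10:57784856-57784884, plus strand), Mmd2 (chr5:142608841-142608869, minus strand) and Zcchc24 (chr14:25769086-25769114, minus strand). Fabp7 is shown as the most abundant listed gene with an arm, and the others as reported joint targets of NFIA and SOX9.
Fabp7: tcattcaaatgaTTGGCtttttgcccgct
Mmd2: ccagccgggcgaTTGGCagcgtgcgccca
Zcchc24: aggcggggcgggGCCAAaagtttcctgcc
The arm began 55, 105 and 30 bases before the start site. The windows matched for Gfap, Slc1a3 and Aldh1l1 held no arm. Of the 7 windows matched to Nfia, Nfic, Nfix and Zbtb20, 3 held it, all of them at Nfix starts. Binding was not measured, so a match is only a description of the letters.

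Zbtb20 was set against the other genes named Zbtb, which encode BTB-zinc finger proteins. The table holds 40 such genes, of which 39 were detected, and the median over all 40 was 37.8 normalized reads per kilobase. Of the 38 tested beside Zbtb20, 35 lay below it per kilobase and 3 were not called (limma, adjusted p under 0.05, where 71.2% of all genes were called below). None was called above it, at an adjusted or an unadjusted p under 0.05 in limma. The 3 were Zbtb22 at 225 ± 24.8 (SD, n = 3), Zbtb18, a repressor gene of cortical development, at 210.03 ± 19.9, and Zbtb47 at 193 ± 13.8, beside 197 ± 24.8 for Zbtb20.

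The log2 difference from Zbtb20 was 0.20 ± 0.16 (SE) for Zbtb22, 0.10 ± 0.16 for Zbtb18 and -0.02 ± 0.15 for Zbtb47 (adjusted p = 0.219, 0.535 and 0.893, limma), and each sign held in 2 of 3 libraries. Next in order was Zbtb4, whose product binds methylated DNA, at 139 ± 5.73 per kilobase, a log2 difference of -0.49 (adjusted p = 0.0018, limma). That call ended without replicate 2 (adjusted p = 0.105, limma) or replicate 3 (0.0544). The lowest was Zbtb16, the gene of PLZF, at 1.99 ± 0.354. With the median coding transcript as length, the log2 differences of Zbtb22 and Zbtb18 from Zbtb20 were -4.18 and -1.86.

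**Figure D5:**
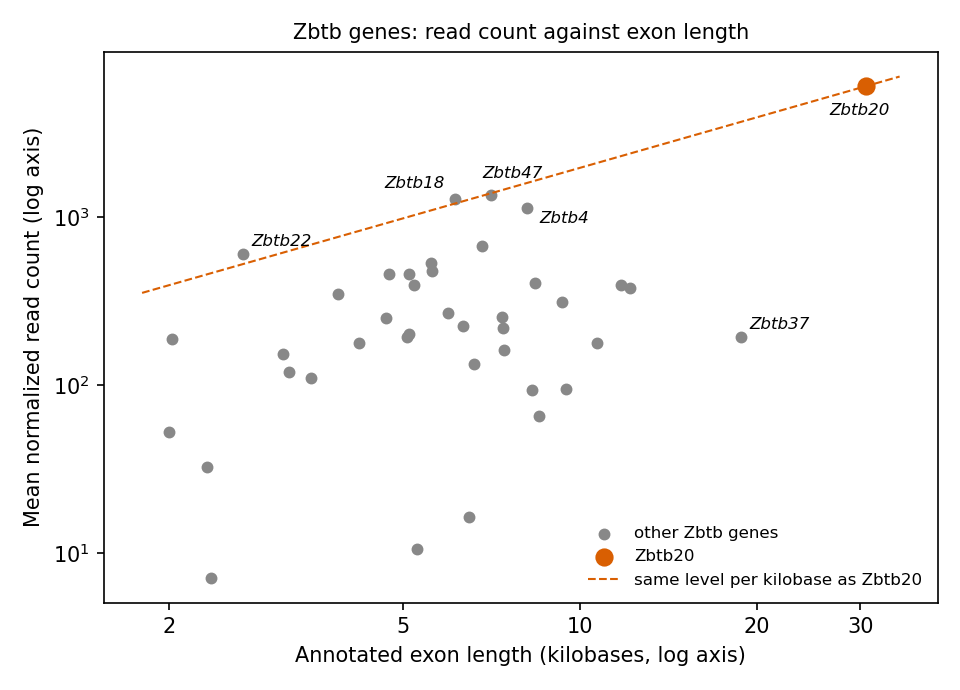
Mean normalized read count (y axis, log scale) against annotated exon length (x axis, log scale) for the 40 Zbtb genes, with a dashed line at the level per kilobase of Zbtb20. Zbtb20 has the longest exons and the highest count, and Zbtb22 and Zbtb18 lie just above the line.

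Genes that ZBTB20 is reported to repress in cortical and hippocampal cells were low beside it. Of 8 measured genes, 7 were detected, and these 7 lay below Zbtb20 per kilobase (limma, adjusted p under 0.05, where 71.2% of all genes were called below). The homeobox gene Cux1 was the highest at 123 ± 7.14 normalized reads per kilobase (SD, n = 3), and its call ended with the longest coding transcript as length (adjusted p = 0.157, limma). Fezf2, a factor of deep-layer neurons, was at 70.9 ± 11.3, and Pou3f2, the gene of BRN2, at 68.7 ± 8.28, a log2 difference of -1.51 ± 0.16 (SE) from Zbtb20.

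Mef2c, also expressed by microglia, stood at 29.5 ± 1.43 normalized reads per kilobase (SD, n = 3), Rorb at 14.5 ± 1.33 and Cux2 at 9.13 ± 1.78. Foxp2, a forkhead factor gene, was at 0.470 ± 0.114 from 31 reads in all. The list median, which includes Foxp2 although it was not detected, was 22.02, against 71.7 for all detected genes. No library lacks Zbtb20, so these levels say nothing of its effect.

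Several annotated genes overlap the spans of the 5 genes, and the strand setting of the authors' counting is not given in the sources used here. Of 19, 9 were in the table and 4 were detected. E130114P18Rik, which starts opposite Nfia, stood at 342, the pseudogene BC002163 inside Zbtb20 at 256, Lyl1 opposite the end of Nfix at 182 and the antisense gene Gm11266 of Nfib at 134 normalized reads. Gm11266 was at 96.0, 110.4 and 196 in replicates 1, 2 and 3, highest in the same library as Nfib. The other 5 were at 5.18 or less. At most 137 exon bases were shared with a gene on the opposite strand, that of G430095P16Rik in Nfix.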

How the data were processed

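Poly(A) RNA sequencing of 3 cultures was analysed, with stranded library preparation per the labels. The deposited values are a signal per gene, a read count that the authors normalized with DESeq2 on mm10, per the submitters' processing notes, and the authors' mean column was not used. For the aligner, the counting tool and any gene filter the sources used here name nothing. Within a library every value was a whole-number multiple of a single step, and 100% of the values came out as whole reads (tolerance 0.05). Identifiers were matched to GENCODE vM21 (99.5%) for position and exon length.

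Values were used as log2(normalized count + 1) minus log2 of the length in kilobases. The within-library difference of each gene from Nfia or Zbtb20 was tested against 0 with limma (trended prior, intercept as the sole term) over genes with a mean of 10 or more, with Benjamini-Hochberg adjustment and a threshold of 0.05. For variation between libraries, the reads of each gene (at least 30) were set against those its library totals predict, in a chi-square test. Replicates are separate pups per the labels. The limma p-values rest on 3 cultures, with errors drawn mostly from the prior over all genes. The chi-square p-values measure departure from read sampling alone, not the spread between cultures. Effects of the pup, its culture and the library step cannot be told apart. R 4.3.3, limma 3.58.1, edgeR 4.0.16 (for TMM library sizes, an alternative in the chi-square test), Python 3.11.15 and SciPy 1.17.1 were used. Both tests were run on simulated data. The limma test called 99% of genes simulated at 1.5 times the level of Nfia and 1% of those at its level. Each of these differences was taken from the same reference, Nfia, so their errors are shared. The 1% is thus a description of that simulation and not a general rate of false calls. How an error in the length used would change these shares was not tested. The chi-square test called 78% of genes with a 1.5-fold change in replicate 1. Its simulated reads varied by read sampling alone, so its error under variation between cultures was not tested.

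The members, gene lists and tests were chosen with earlier results of these data known. Named are the 5 genes, the 4 highest and 4 lowest gliogenic regulators, every gene of the NFI-linked and reported ZBTB20-repressed lists with a row in the table (except 1 gene of the latter, counted but not reported here), the 4 highest Zbtb genes, the 2 on either side of Zbtb20 and the lowest, genes overlapping the 5, and the 2 genes nearest to each in pattern. Aside from these, cell type markers and Id4 were named after their values were seen. Alternatives were other lengths, pseudocount, filter, prior, scaling and leaving out each replicate.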

Additional observations from a re-analysis of the deposited data

How the results depend on the processing

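The number of NFI genes above Zbtb20 per kilobase was 2 with all exons as length, 3 with the longest coding transcript, and 0 with the median coding transcript or without division by length. Against Zbtb20, 2 of the 4 NFI genes were called (1 above, 1 below). With the longest coding transcript 3 were called (2 above), with the median coding transcript 4 (0 above, 4 below), without division by length 3 (0 above, 3 below), and without a filter on low values 3 (2 above). Leaving out each replicate gave 1 to 2 calls, with 0 to 1 below. Against Nfia, 4 members were called, and 2 to 4 with a replicate left out. Without division by length, 7 gliogenic regulators were above Nfia and 17 below, beside 16 and 7. Of all calls against Nfia, 29.1% were above, 47.2% with the median coding transcript and 9.65% without division, and against Zbtb20 20.8%, 0.427% and 1.10%. The shifts with another length follow from the lengths themselves, and for the others the cause was not tested.

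Signs that turned were those of Nfic (-3.45 with the median coding transcript, -1.91 without division by length), Nfix (-1.34 and -0.28), Zbtb22 (-4.18 and -3.33) and Zbtb18 (-1.86 and -2.22) against Zbtb20. So did Nfib against Zbtb20 (0.41) with the longest coding transcript, Ezh2 against Nfia (0.27 with the longest and 0.44 with the median coding transcript), and Zbtb47 against Zbtb20, which ran from -0.18 to 0.095 with a replicate left out and was above 0 without replicate 2 or 3. The counts of Zbtb genes, NFI-linked genes and genes reported as repressed stayed within 1.5 times, as did the 4 members called for library variation, under every alternative run. No paired analysis was possible because there is a single group. Depth did not limit the 5 genes, while Hes5 and Foxp2 rest on few reads.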
